A study of Homo sapiens with 12 samples.

Results

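The genes described here encode the proteins that move Ca2+ into the cytosol from the endoplasmic reticulum (ER) and the medium, and those that clear it again. The 10 members are ORAI1, STIM1, STIM2, ITPR1, ITPR2, ITPR3, ATP2A2, ATP2C1, ATP2B1 and ATP2B4. They were chosen by symbol, each matched 1 row of the deposited expression table, and they make up 10 of its 24331 features. The rule itself uses no measured value. All 10 passed the minimum mean expression of 1 FPKM (fragments per kilobase of transcript, scaled to the mapped fragments of the library), so every member was tested.

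ER Ca2+ is released through the IP3 receptors (ITPR1, ITPR2 and ITPR3) when receptors at the cell surface activate phospholipase C, which makes IP3. STIM1 and STIM2 sense the fall of Ca2+ in the ER lumen and open ORAI1, the pore of store-operated entry at the plasma membrane. The SERCA pump (ATP2A2) returns Ca2+ to the ER, the SPCA pump (ATP2C1) loads the Golgi, and the PMCA pumps (ATP2B1 and ATP2B4) expel it from the cell. Ionomycin, a Ca2+ ionophore, carries Ca2+ across membranes and empties stores without IP3, and raised cytosolic Ca2+ activates calcineurin and NFAT.

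RNA-seq was performed on MDA-MB-231, a metastatic breast cancer cell line that lacks the estrogen receptor. Wild type (WT) cells were compared with ΔCRE cells (labelled KO), in which CRISPR/Cas9 had removed NFAT and NF-κB sites of the core regulatory element in the ETS1 promoter, both at 0 h (mock) and after 6 h and 24 h of PMA/Ionomycin, with 2 libraries in each of 6 groups. PMA, which activates protein kinase C, and Ionomycin were given together, and mock cells were taken at 0 h alone, so that the effects of either agent, of both and of time in culture cannot be told apart. Edited clones were screened by PCR and sequencing, the number of clones behind the ΔCRE libraries is not stated, and an effect of the deletion and of the cloning cannot be told apart. The study's methods call the replicates biological without saying how the cultures were kept separate, so the p-values measure the spread between these libraries only.

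ETS1, whose promoter was edited, was at 24.0 and 23.7 FPKM in the WT libraries at 0 h, 139 and 145 FPKM at 6 h, and 36.2 and 39.7 FPKM at 24 h. In ΔCRE cells it was at 5.08 and 16.5 FPKM at 0 h, 62.8 and 62.2 FPKM at 6 h, and 29.3 and 30.7 FPKM at 24 h. At each time the ΔCRE libraries were the lower ones, in the direction of the labels. At 0 h this rests on replicate 2 (16.5 FPKM) alone, since replicate 1 (5.08 FPKM) stood apart, as described next. The 6 markers of MDA-MB-231 cells (VIM, CD44, AXL, CAV1, MSN, ANXA1) summed to 2579 to 3886 FPKM in 11 libraries. The 6 genes listed as absent or low in these cells (ESR1, PGR, CDH1, GATA3, KRT20, EPCAM) summed to 4.02 to 6.22 FPKM there. Of these, 4 were under 1 FPKM in all 11 libraries, and the estrogen receptor gene ESR1 was at 0.00894 FPKM or less. GATA3 and EPCAM reached the minimum mean of 1 FPKM.

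Replicate 1 of ΔCRE 0 h stood apart. Its Pearson correlation with replicate 2 was 0.867 (log2 scale, across features), against 0.978 to 0.984 within the other 5 groups, and its FPKM summed to 1423335, against 566255 to 651080 in the other 11 libraries. The 14 gut epithelium markers summed to 11857 FPKM in it and to 4.27 to 5.31 FPKM elsewhere; 13 of them were above all 11 other libraries, and 6 of them (among which VIL1, CDX2 and FABP1) were at 0 in all of those. Its MDA-MB-231 markers summed to 1916 FPKM. This library is therefore shown apart, and the tests rest on the other 11, so that ΔCRE 0 h is the single library replicate 2, assumed to vary like the other groups.

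Tests were made with limma on log2(FPKM + 1), a scale that understates the changes of low genes, with p-values adjusted by Benjamini-Hochberg over 11256 features, and a feature was called at an adjusted p under 0.05. In these bulk libraries, fewer cells that express a gene and less RNA per cell cannot be told apart.

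In unstimulated WT cells, ATP2A2 had the highest level of the 10 genes per unit length, at 76.7 and 75.8 FPKM. Over the 11 libraries the order of the mean levels was ATP2A2 (85.9 FPKM), ATP2B1 (44.4), ITPR3 (29.0), ORAI1 (25.4), ATP2C1 (24.1), STIM1 (11.9), ATP2B4 (9.26), STIM2 (4.31), ITPR1 (2.92) and ITPR2 (2.40 FPKM). The ranges of neighbours in this order overlapped over the 11 libraries, except for ATP2C1 above STIM1 and for ATP2B4 above STIM2. Close relatives were low, with ATP2A1 at 0.244 to 0.675 FPKM, ATP2A3 at 0.199 to 1.40 FPKM, ATP2B2 at 0.0125 to 0.303 FPKM and ATP2B3 listed at 0. The ryanodine receptors, the other large family of ER release channels, were at 0.0456 FPKM or less. Among the IP3 and ryanodine receptors, ITPR3 therefore made up most of the RNA measured at 0 h, and ATP2A2 made up most of the pump RNA. Other release channels were not counted in this.

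After 6 h of PMA/Ionomycin, WT cells had more RNA of both PMCA pumps, of the SERCA pump, of ITPR3 and of ORAI1, and less of ITPR1. In this comparison 6 of the 10 members passed the test, 5 higher and 1 lower, where 44.4% of all features tested were called (23.3% higher and 21.1% lower). The median log2 fold change of the members was 0.20, against -0.0014 for all features. When the library that stood apart was put back into the fit, which widens the common estimate of the spread, ATP2B4 was the 1 member called. The share of all features called in that fit is not given here, so the drop cannot be read as particular to the members. Rescaling all libraries to TPM, which lowered the median of all features at 6 h from -0.0014 to -0.12 in WT cells and from 0.0022 to -0.13 in ΔCRE cells, kept these 6 calls in WT cells and added STIM2. It also moved the share of higher genes among all calls in WT cells from 52.5% to 35.0%.

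The plasma membrane pumps had the largest changes of the 10 genes at 6 h. ATP2B1 encodes PMCA1, the widely expressed pump that exports Ca2+. It was at 19.8 and 22.9 FPKM in the WT libraries at 0 h, 57.2 and 59.0 FPKM at 6 h, and 34.8 and 39.4 FPKM at 24 h. In ΔCRE cells the values were 24.8 FPKM at 0 h, 67.0 and 69.7 FPKM at 6 h, and 44.1 and 49.2 FPKM at 24 h. In each genotype the 3 times did not overlap, the 6 h libraries were highest, and the 24 h libraries remained above 0 h. The rise in WT cells was 1.41 on the log2 scale at 6 h (SE 0.09, 2.65-fold, limma adjusted p = 6.79e-06) and 0.77 at 24 h (SE 0.09, 1.71-fold, adjusted p = 0.000157). ΔCRE cells rose by 1.42 at 6 h (SE 0.11, limma adjusted p = 3.41e-05) and by 0.88 at 24 h (SE 0.11, adjusted p = 0.000383).

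ATP2B4, which encodes the second PMCA pump of these cells, rose at 6 h in both genotypes and was lower again at 24 h. It was at 6.55 and 6.54 FPKM in WT cells at 0 h, 13.8 and 13.7 FPKM at 6 h, and 6.74 and 7.41 FPKM at 24 h. ΔCRE cells held 5.80 FPKM at 0 h, 13.4 and 12.1 FPKM at 6 h, and 8.09 and 7.83 FPKM at 24 h. The 6 h libraries stood clear of the rest in both genotypes. In WT cells the gene was 1.95-fold higher at 6 h than at 0 h (log2 0.97, SE 0.07, limma adjusted p = 1.47e-05) and fell by 0.87 from 6 h to 24 h (SE 0.07, adjusted p = 4.09e-05), while the change from 0 h to 24 h was 0.10 and did not pass the test (95% interval -0.06 to 0.26). In ΔCRE cells the 24 h level remained above 0 h, by 0.40 (SE 0.08, limma adjusted p = 0.00609). The sum of both pumps went from 26.4 to 29.4 FPKM at 0 h to 71.0 to 72.7 FPKM at 6 h in WT cells, and ATP2B1 made up 75.2% to 77.8% of it at 0 h, 80.6% to 81.2% at 6 h and 83.8% to 84.2% at 24 h.

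ATP2A2 encodes SERCA2, the pump that refills the ER. WT libraries were at 76.7 and 75.8 FPKM at 0 h, 98.8 and 104 FPKM at 6 h, and 63.5 and 69.2 FPKM at 24 h. ΔCRE libraries were at 84.8 FPKM at 0 h, 119 and 111 FPKM at 6 h, and 69.5 and 72.7 FPKM at 24 h. The order was the same in both genotypes, with 6 h highest and 24 h below 0 h, and no libraries of different times overlapped. In WT cells the gene rose by 0.41 at 6 h (SE 0.06, 1.33-fold, limma adjusted p = 0.00101) and fell by 0.61 from 6 h to 24 h (SE 0.06, adjusted p = 0.000136). Its 24 h level was below 0 h by a small margin, -0.20 in WT cells (SE 0.06, adjusted p = 0.0247) and -0.25 in ΔCRE cells (SE 0.08, adjusted p = 0.0281). The lower level at 24 h in WT cells was not called after quantile normalization, in a fit of the 4 libraries alone, or without either 0 h library or the first 24 h library (highest adjusted p = 0.165), and that in ΔCRE cells was not called after quantile normalization or without the first 24 h library (highest adjusted p = 0.101). The ratio of ATP2A2 to ATP2B1 FPKM was 3.31 to 3.87 in the 0 h libraries and 1.48 to 1.82 in the later ones.

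ATP2C1, the Golgi pump, lay between 22.4 and 26.0 FPKM in the 11 libraries. It was not called in any of the 12 comparisons. Its WT change was -0.06 at 6 h (95% interval -0.25 to 0.14) and -0.06 at 24 h (-0.26 to 0.14), which leaves room for changes of that size. The libraries of all 3 times overlapped in WT cells.

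Among the release channels, the IP3 receptor genes moved in opposite directions. ITPR3 rose from 19.4 and 19.6 FPKM at 0 h to 34.8 and 34.0 FPKM at 6 h in WT cells, and was at 28.3 and 30.2 FPKM at 24 h. The ΔCRE values were 22.5 FPKM at 0 h, 36.6 and 32.3 FPKM at 6 h, and 31.1 and 30.2 FPKM at 24 h. All later libraries were above all 0 h libraries. The rise in WT cells was 0.78 at 6 h (SE 0.07, 1.72-fold, limma adjusted p = 3.91e-05) and 0.56 at 24 h (SE 0.07, adjusted p = 0.000202), and that in ΔCRE cells was 0.59 at 6 h (SE 0.08, adjusted p = 0.00104).

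ITPR1, the isoform best known from neurons, was at 3.50 and 3.17 FPKM in WT cells at 0 h, 2.18 and 1.89 FPKM at 6 h, and 2.70 and 2.86 FPKM at 24 h. In ΔCRE cells it was at 3.70 FPKM at 0 h, 2.39 and 2.56 FPKM at 6 h, and 3.53 and 3.66 FPKM at 24 h. The 6 h libraries were lowest in each genotype. It fell by 0.52 at 6 h in WT cells (SE 0.08, limma adjusted p = 0.00131) and by 0.44 in ΔCRE cells (SE 0.10, adjusted p = 0.0123). At 24 h it differed from 0 h by -0.20 in WT cells (adjusted p = 0.0727) and by -0.03 in ΔCRE cells (adjusted p = 0.816). The WT value at 24 h was called after quantile normalization (-0.25, limma adjusted p = 0.0235) and without the trend of variance (adjusted p = 0.0449).

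ITPR2 had the lowest mean level of the 10 genes, at 1.82 to 2.85 FPKM. It was not called at 6 h or 24 h against 0 h in either genotype, with a WT change of -0.08 at 6 h (95% interval -0.29 to 0.13), and it rose by 0.39 from 6 h to 24 h in ΔCRE cells (limma adjusted p = 0.00792). Of the summed FPKM of the 3 receptors, ITPR3 held 76.8% to 77.2% in WT cells at 0 h and 88.7% to 88.8% at 6 h. The share of ITPR1 went from 12.5% to 13.8% at 0 h to 4.94% to 5.55% at 6 h. In ΔCRE cells ITPR3 went from 79.0% at 0 h to 87.6% to 89.7% at 6 h. The sum itself was 25.3 to 25.4 FPKM in WT cells at 0 h and 38.3 to 39.2 FPKM at 6 h.

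**Figure D1:**
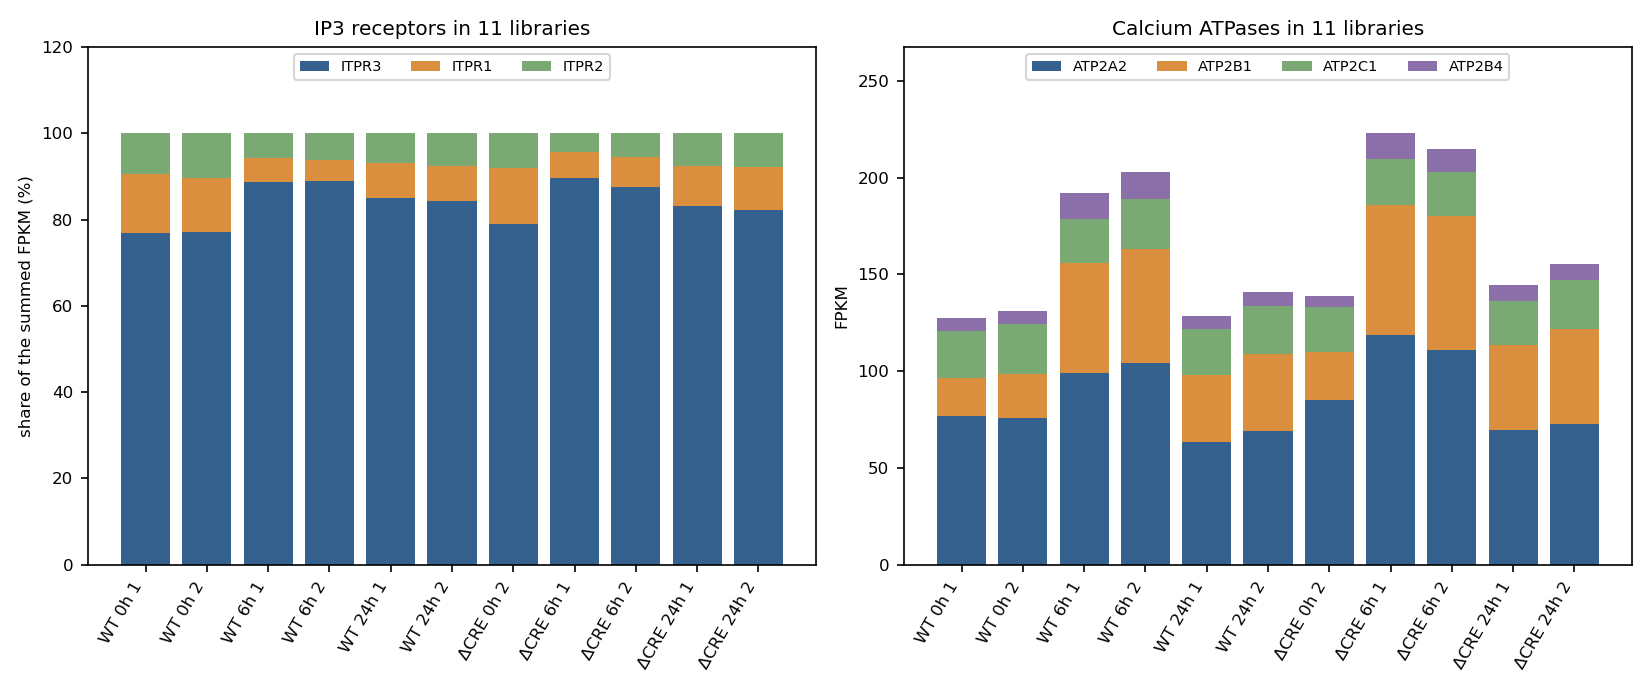
Left, share of each IP3 receptor gene in the summed FPKM of the 3 genes (%), and right, FPKM of the 4 Ca2+ ATPase genes stacked, in each of the 11 libraries. ITPR3 takes 88.7% to 88.8% of the receptor RNA in the WT 6 h libraries, and the pump total is 192 to 203 FPKM there, against 128 to 131 FPKM in WT cells at 0 h.

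Of the genes of store-operated entry, ORAI1 rose and the STIM genes had smaller differences. ORAI1 was at 21.3 and 20.1 FPKM in WT cells at 0 h, 28.3 and 27.9 FPKM at 6 h, and 32.2 and 29.6 FPKM at 24 h. ΔCRE cells had 19.4 FPKM at 0 h, 22.9 and 22.6 FPKM at 6 h, and 28.6 and 26.7 FPKM at 24 h. Levels were ordered by time in both genotypes, with no overlap between times. From 6 h to 24 h the WT change of 0.13 did not pass the test (limma adjusted p = 0.115), but it was 0.22 after quantile normalization (adjusted p = 0.0143) and 0.25 after rescaling to TPM (adjusted p = 0.00599), and was then called. In WT cells against 0 h the rise was 0.42 at 6 h (SE 0.06, limma adjusted p = 0.000812) and 0.55 at 24 h (SE 0.06, adjusted p = 0.000135). In ΔCRE cells the difference of 0.22 at 6 h did not pass the test (SE 0.08, adjusted p = 0.0572), and the rise of 0.49 at 24 h did (SE 0.08, adjusted p = 0.00118).

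STIM1 libraries lay at 11.7 and 11.5 FPKM in WT cells at 0 h, 11.1 and 11.9 FPKM at 6 h, and 12.9 and 14.5 FPKM at 24 h. Only the WT 24 h libraries were above all others. STIM1 was 0.22 higher in WT cells at 24 h than at 0 h (SE 0.07, limma adjusted p = 0.034), a call that was lost in 5 of 20 alternatives, among them a fit of the 4 libraries alone and the fits without either WT 0 h library or without the second WT 24 h library (highest adjusted p = 0.214). In ΔCRE cells STIM1 was at 12.1 FPKM at 0 h, 11.5 and 10.5 FPKM at 6 h, and 11.7 and 12.1 FPKM at 24 h, with no call.

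STIM2, the sensor of small falls of ER Ca2+, was at 5.05 and 4.69 FPKM in WT cells at 0 h, 4.02 and 4.38 FPKM at 6 h, and 4.36 and 4.43 FPKM at 24 h. ΔCRE cells were at 4.46 FPKM at 0 h, 3.65 and 3.87 FPKM at 6 h, and 4.35 and 4.15 FPKM at 24 h. Its WT difference at 6 h was -0.18 (SE 0.07, limma adjusted p = 0.0764), and it was called after rescaling to TPM (-0.30, adjusted p = 0.016), as were its ΔCRE changes to 6 h (-0.34, adjusted p = 0.0301) and from 6 h to 24 h (0.24, adjusted p = 0.0384). STIM1 made up 69.8% to 76.6% of the STIM RNA in the 11 libraries, and the ratio of ORAI1 to STIM1 FPKM was 1.76 to 1.82 in WT cells at 0 h and 2.34 to 2.56 at 6 h.

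At 24 h the members called in WT cells numbered 5 of 10, with ORAI1, STIM1, ATP2B1 and ITPR3 higher and ATP2A2 lower, where 54.6% of all features tested were called (26.5% higher and 28.2% lower). Between 6 h and 24 h, 6 of 10 were called in WT cells, where 46.8% of all features were (20.5% higher and 26.3% lower): the 3 pumps that had risen and ITPR3 were lower at 24 h, and STIM1 and ITPR1 higher. The decline of ITPR3 was the smallest of these (-0.23, adjusted p = 0.0225) and was lost after quantile normalization, after rescaling to TPM, and without either 6 h library or the first 24 h library (highest adjusted p = 0.193). The calls of STIM1 (0.23) and ITPR1 (0.32) were also lost without single libraries, STIM1 (also in a fit of the 4 libraries alone) without either 6 h library or the second 24 h library, and ITPR1 without the second library of either time. With all 12 libraries in the fit, 0 members were called at 24 h against 0 h and 1 (ATP2B4) between 6 h and 24 h in WT cells. The shares of all features called in that fit are not given beside these counts.

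In ΔCRE cells, 5 of 10 members were called at 6 h against 0 h, where 29.8% of all features were (16.8% higher and 13.0% lower). At 24 h 5 of 10 were called (41.5% of all features, 20.6% higher and 21.0% lower), and between 6 h and 24 h 6 of 10 (49.6% of all features, 22.1% higher and 27.5% lower). ATP2A2, ATP2B1, ATP2B4 and ITPR3 were higher and ITPR1 lower at 6 h, and ORAI1, ATP2B1, ATP2B4 and ITPR3 were higher and ATP2A2 lower at 24 h. Both counts rest on 1 library at 0 h. With the library that stood apart included they fell to 3 and 3, and that between 6 h and 24 h to 0, again without the shares of all features beside them. Without the second ΔCRE 6 h library, ITPR3 was called lower at 24 h than at 6 h (-0.25, limma adjusted p = 0.0207).

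**Figure D2:**
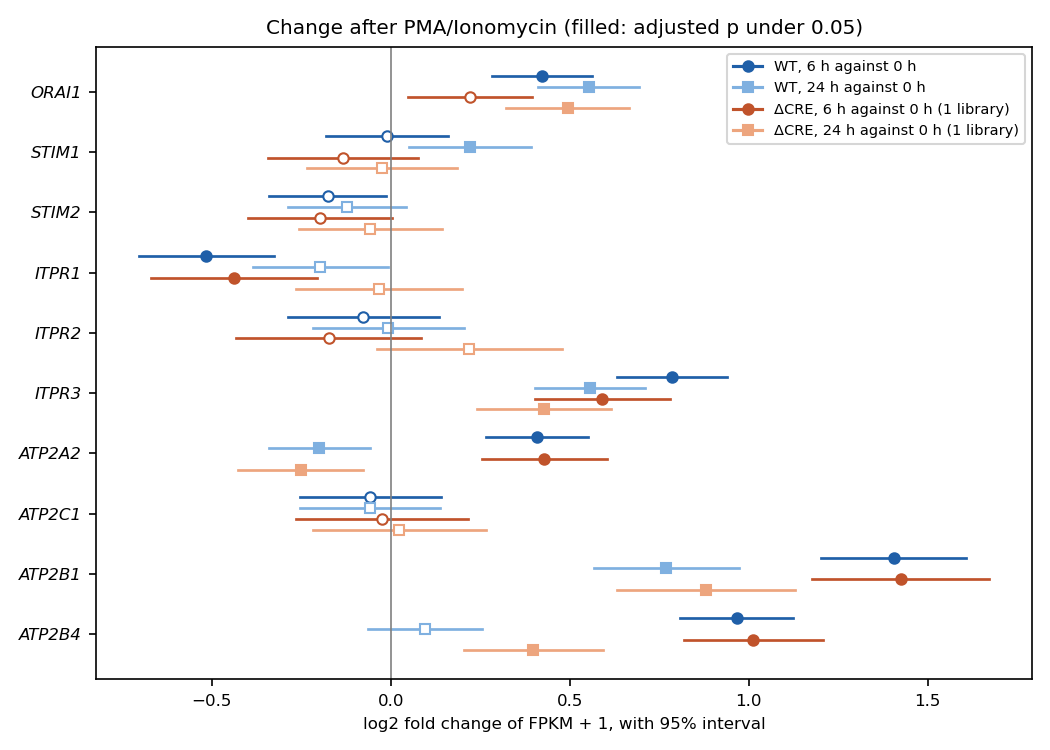
Log2 fold change of FPKM + 1 against 0 h (horizontal axis) with its 95% interval for each gene, at 6 h (circles) and 24 h (squares) in WT (blue) and ΔCRE cells (orange), filled where the limma adjusted p was under 0.05. ATP2B1 lies farthest right at 6 h, at 1.41 and 1.42, and ITPR1 is to the left of 0.

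ΔCRE cells were compared with WT cells at each time. At 0 h none of the 10 members was called by limma (1.69% of all features were), with 1 member, ITPR3, at an unadjusted p under 0.05. At 6 h ORAI1 was called, lower in ΔCRE cells by 0.29 (SE 0.06, 1.23-fold, adjusted p = 0.021), where 9.83% of all features were called and 6.22% were called lower. Its ΔCRE libraries at 6 h (22.9 and 22.6 FPKM) were both below the WT libraries (28.3 and 27.9 FPKM). This call was lost without any 1 of the 4 libraries compared, in a fit of those 4 libraries alone, and with all 12 libraries (adjusted p over all alternatives 0.00549 to 1).

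At 24 h none of the members was called by limma (6.33% of all features were), and 4 had an unadjusted p under 0.05. The difference of ATP2B1 was 0.32 (95% interval 0.12 to 0.53, limma adjusted p = 0.0732), and its ΔCRE libraries did not overlap with the WT libraries at either later time. That of ITPR1 was 0.28 (95% interval 0.09 to 0.47, adjusted p = 0.0888), again with no overlap at 6 h or 24 h. For ORAI1 it was -0.15 (95% interval -0.29 to -0.01, adjusted p = 0.203) and for STIM1 -0.18 (-0.35 to -0.01, adjusted p = 0.207). A lack of overlap was common, since ΔCRE and WT libraries overlapped for 1 member at 24 h and for 3 at 6 h. The share of all features without overlap was not counted, so it cannot be read as particular to ATP2B1 and ITPR1.

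Whether the responses themselves differed between the genotypes was tested as an interaction. No member was called in the difference between ΔCRE and WT cells of the change from 0 h to 6 h (0.267% of all features), from 0 h to 24 h (0.275%) or from 6 h to 24 h (0.160%), with 0, 1 and 2 members at an unadjusted limma p under 0.05. For ATP2B1 the difference of the 6 h rises was 0.02, with a 95% interval of -0.30 to 0.34. That of ORAI1 was -0.20 (-0.42 to 0.02). For ATP2B4 the change from 6 h to 24 h differed by 0.26 (0.03 to 0.48) and did not pass the test (limma adjusted p = 0.664). These intervals leave room for differences as large as the smaller responses.

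**Figure D3:**
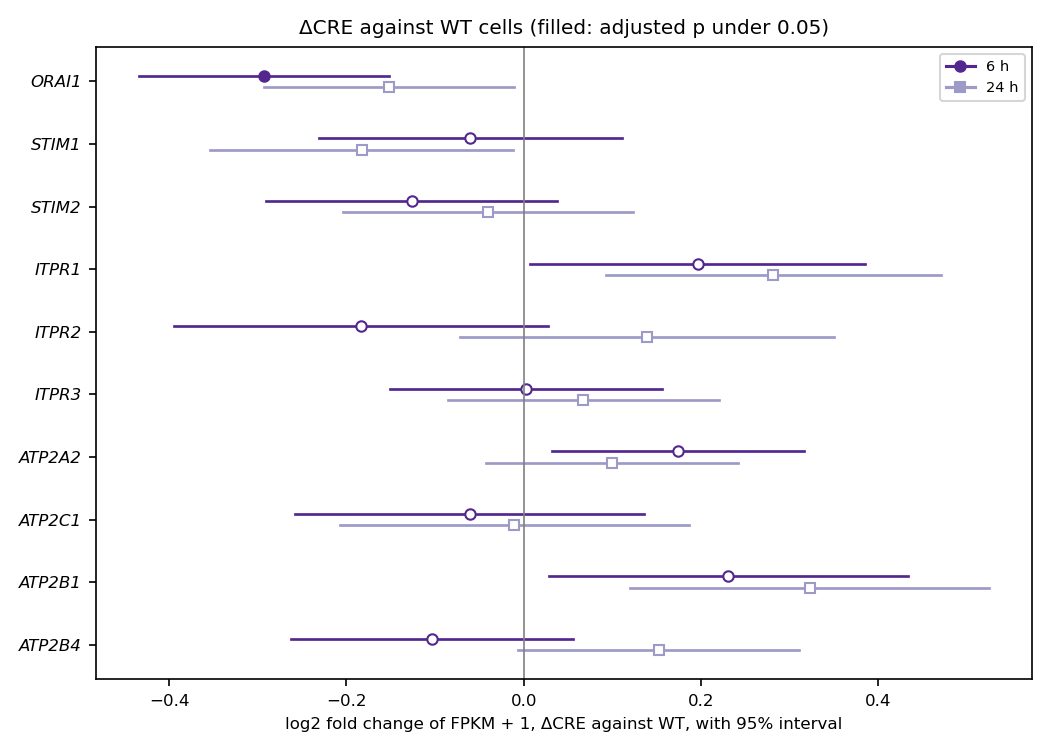
Log2 fold change of FPKM + 1 of ΔCRE against WT cells (horizontal axis) with its 95% interval for each gene at 6 h (dark circles) and 24 h (light squares), filled where the limma adjusted p was under 0.05. ORAI1 at 6 h, at -0.29, is the filled point, and ATP2B1 and ITPR1 lie to the right of 0 at both times.

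In ΔCRE 0 h replicate 1, which stood apart, most members were low. ATP2A2 was at 10.6 FPKM, 12.5% of the value in ΔCRE 0 h replicate 2, ITPR1 at 0.773 FPKM (20.9%) and ATP2B1 at 6.92 FPKM (27.9%). STIM1 at 9.58 FPKM and STIM2 at 3.43 FPKM were nearer, at 79.0% and 76.8%. Among the members, 9 were below all 11 other libraries and 1, ORAI1 at 30.0 FPKM, was within their range. The share of all features below the 11 libraries was not counted, so this count cannot be read as particular to the members. The gut epithelium markers, at 11857 FPKM in sum, moved with these values, and their part in them was not tested.

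The promoters of 8 members were matched by symbol in RefSeq (GRCh38.p14), with 15 windows of 300 bases, each from 250 bases before to 50 bases after a transcription start. ORAI1 and ITPR2 had no entry. The 4 windows below belong to members that changed at 6 h in WT cells and whose start lies within 57 bases of the 5′ end of the deposited feature. The 2 starts of ATP2B1 in RefSeq lie 52771 and 53299 bases upstream of the 5′ end of its deposited feature and are not shown. Capitals mark the NFAT core GGAAA and the NF-κB motif (GGG and TNCC with 3 bases of any kind between them) on either strand.
ATP2B4 (chr1:203626582-203626881, plus strand): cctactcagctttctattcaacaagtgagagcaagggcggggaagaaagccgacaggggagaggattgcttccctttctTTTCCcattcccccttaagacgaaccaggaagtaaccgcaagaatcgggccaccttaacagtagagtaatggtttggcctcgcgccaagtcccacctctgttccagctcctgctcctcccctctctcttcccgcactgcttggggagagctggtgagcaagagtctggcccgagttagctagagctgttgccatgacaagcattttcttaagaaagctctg
ATP2A2 (chr12:110280997-110281296, plus strand): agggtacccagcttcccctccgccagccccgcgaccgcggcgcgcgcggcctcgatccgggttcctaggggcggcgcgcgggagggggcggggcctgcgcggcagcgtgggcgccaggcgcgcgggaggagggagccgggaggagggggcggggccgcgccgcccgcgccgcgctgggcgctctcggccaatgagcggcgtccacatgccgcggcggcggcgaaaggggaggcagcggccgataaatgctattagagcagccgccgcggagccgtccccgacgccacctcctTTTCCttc
ITPR3 (chr6:33621072-33621371, plus strand): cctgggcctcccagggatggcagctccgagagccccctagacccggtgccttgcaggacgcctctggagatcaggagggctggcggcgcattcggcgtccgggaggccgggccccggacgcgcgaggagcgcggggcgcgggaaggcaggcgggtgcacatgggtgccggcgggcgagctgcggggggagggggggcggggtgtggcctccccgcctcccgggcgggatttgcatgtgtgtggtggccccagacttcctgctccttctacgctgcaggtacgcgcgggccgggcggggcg
ITPR1 (chr3:4493098-4493397, plus strand): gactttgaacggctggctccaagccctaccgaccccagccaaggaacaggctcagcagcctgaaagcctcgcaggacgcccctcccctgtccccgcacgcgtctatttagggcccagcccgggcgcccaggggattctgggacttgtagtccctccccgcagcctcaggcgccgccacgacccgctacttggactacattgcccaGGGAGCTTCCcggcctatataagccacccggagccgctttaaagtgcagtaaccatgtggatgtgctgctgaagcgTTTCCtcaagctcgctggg

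ATP2B4, ATP2A2 and ITPR1 each hold 1 NFAT core, ITPR1 also holds an NF-κB motif, and the window of ITPR3 holds neither. Over the 15 windows, the NFAT core was in 8, which belong to 6 of the 8 members, against 61.2% of the 35116 RefSeq promoters of this length. The NF-κB motif was in 6 of the 15, which belong to 5 members, since overlapping STIM1 windows share 1 match, against 21.5% of all promoters. The AP-1 motif TGANTCA and the ER stress element (CCAAT and CCACG with 9 bases between them) were in 0 of the 15, and in 7.71% and 0.0769% of all promoters. The GC box GGGCGG, which can overlap the NF-κB motif, was in 11 of the 15 and in 45.0% of all promoters. A match is a match of letters only.

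Measured in GRCh37 coordinates of the deposited table, the genes lie apart from each other. ATP2B1 (chr12:89981826-90049844), ATP2A2 (chr12:110719032-110788897), ORAI1 (chr12:122064455-122079946) and ITPR2 (chr12:26488285-26986131) share chromosome 12. ETS1 is on chromosome 11, as is STIM1 (chr11:3876933-4114440).

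The features whose levels followed the most responsive members over the 11 libraries were named for ATP2B1 and ATP2B4 among 8203 features with a mean of at least 5 FPKM. For ATP2B1 they were VIMP (selenoprotein S of the ER membrane, Pearson's r = 0.99), ARFGAP3 (a regulator of Golgi vesicle coats, r = 0.99) and ELL2 (an elongation factor of RNA polymerase II, r = 0.99). For ATP2B4 they were CD44 (the hyaluronan receptor, r = 0.99), HSPA5 (r = 0.98) and SDC4 (syndecan-4, r = 0.98). These are correlations over 6 groups of libraries, in which a feature that peaks at 6 h follows any other that does.

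Other genes of Ca2+ handling were taken from 9 lists of 121 genes, of which 120 were in the table and 73 were tested. At 6 h in WT cells 27 were higher and 5 lower by the test (median log2 fold change 0.05), and at 24 h 26 were higher and 15 lower (median 0.09). The called share in either direction, 43.8% at 6 h and 56.2% at 24 h, was near that of all features (44.4% and 54.6%). By direction, 23.3% of all features were higher and 21.1% lower at 6 h, and 26.5% and 28.2% at 24 h. The split of the listed genes at 6 h, 27 higher and 5 lower, was thus less even than that of all features.

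Among the partners of store-operated entry, 1 of 8 tested genes rose at 6 h, and 2 rose and 1 fell (EFCAB4B, -0.20, limma adjusted p = 0.048) at 24 h in WT cells. ORAI2, a paralog of ORAI1, rose from 4.91 and 5.13 FPKM at 0 h to 7.19 and 7.16 FPKM at 6 h (0.44, limma adjusted p = 0.00232). In ΔCRE cells ORAI2 was at 5.37 and 4.50 FPKM at 6 h, which differed from WT cells by -0.47 (log2, adjusted p = 0.00878), as ORAI1 was lower there. ORAI3 rose from 2.05 and 2.11 FPKM to 4.84 and 5.03 FPKM at 24 h (0.95, adjusted p = 0.000117). TMEM66, which encodes the STIM inhibitor SARAF and had the highest level of the list, was at 41.8 to 50.2 FPKM in the 11 libraries.

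Of the Ca2+ binding proteins of the store, 6 of 10 rose and 1 fell at 6 h, and 3 rose and 4 fell at 24 h in WT cells. HSPA5, which encodes the ER chaperone BiP, went from 296 and 295 FPKM to 1314 and 1379 FPKM at 6 h (2.18, SE 0.05, limma adjusted p = 1.25e-08) and was at 422 and 428 FPKM at 24 h. HSP90B1 (0.97) and CALR, the store buffer calreticulin (0.77), rose at 6 h with it.

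SLC24A6, the mitochondrial sodium-calcium exchanger NCLX, was the one exchanger of 9 that reached the minimum level. It rose from 4.76 and 3.82 FPKM at 0 h to 8.43 and 8.76 FPKM at 6 h and 12.6 and 12.6 FPKM at 24 h in WT cells (0.87 and 1.36, limma adjusted p = 0.000399 and 2.5e-05). Of the 10 tested genes of mitochondrial Ca2+ uptake, 1 rose and 2 fell at 6 h and 0 rose and 3 fell at 24 h. MCU, the uniporter pore, fell by 0.33 at 6 h and by 0.37 at 24 h. VDAC2, an outer membrane channel, was the higher one in ΔCRE cells at 6 h (0.47, adjusted p = 0.0174) and 24 h (0.54, adjusted p = 0.0143).

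Of the genes that make or break down IP3, 4 of 13 rose and 2 fell at 6 h and 5 rose and 2 fell at 24 h in WT cells. PLCB2, a phospholipase C, was at 2.70 and 3.21 FPKM at 0 h and at 9.44 and 9.64 FPKM at 24 h in WT cells, while ΔCRE cells held 0.974 FPKM at 0 h and 3.13 and 3.51 FPKM at 24 h. The difference of ΔCRE from WT cells was -1.01 at 6 h on the log2 scale (limma adjusted p = 0.000745) and -1.29 at 24 h (adjusted p = 0.000298). PLCB1 fell in WT cells by 0.64 at 6 h and by 0.96 at 24 h, and ITPKC, a kinase that phosphorylates IP3, rose by 0.63 and 0.90.

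In the list of IP3 receptor partners and other release channels, 8 of 16 rose and 0 fell at 6 h, among them ITPRIPL2 (0.85) and ITPRIP (0.80), an IP3 receptor interacting protein. ITPRIP was lower in ΔCRE cells at 6 h (-0.35, limma adjusted p = 0.0181). HOMER3, a scaffold of Ca2+ signalling, rose by 0.65 at 6 h and 1.16 at 24 h. Among the other plasma membrane channels, 5 of 9 rose at 6 h and 6 rose and 1 fell at 24 h. The stretch channel PIEZO1 was 0.96 higher at 6 h, and the channel subunits CACNB1 (1.17) and CACNB3 (1.22) were higher at 24 h. Of the remaining 3 Ca2+ ATPase genes and pump subunits tested, NPTN, a PMCA subunit, rose by 0.17 at 6 h and by 0.19 at 24 h, and of the 3 calmodulin genes CALM2 (by 0.57) and CALM3 (by 0.28) fell at 24 h.

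RCAN1, a calcineurin inhibitor whose expression rises with NFAT activity in many cells, had a difference of 0.25 in WT cells at 6 h that did not pass the test (limma adjusted p = 0.0586) and fell by 0.57 at 24 h (adjusted p = 0.00122).

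**Figure D4:**
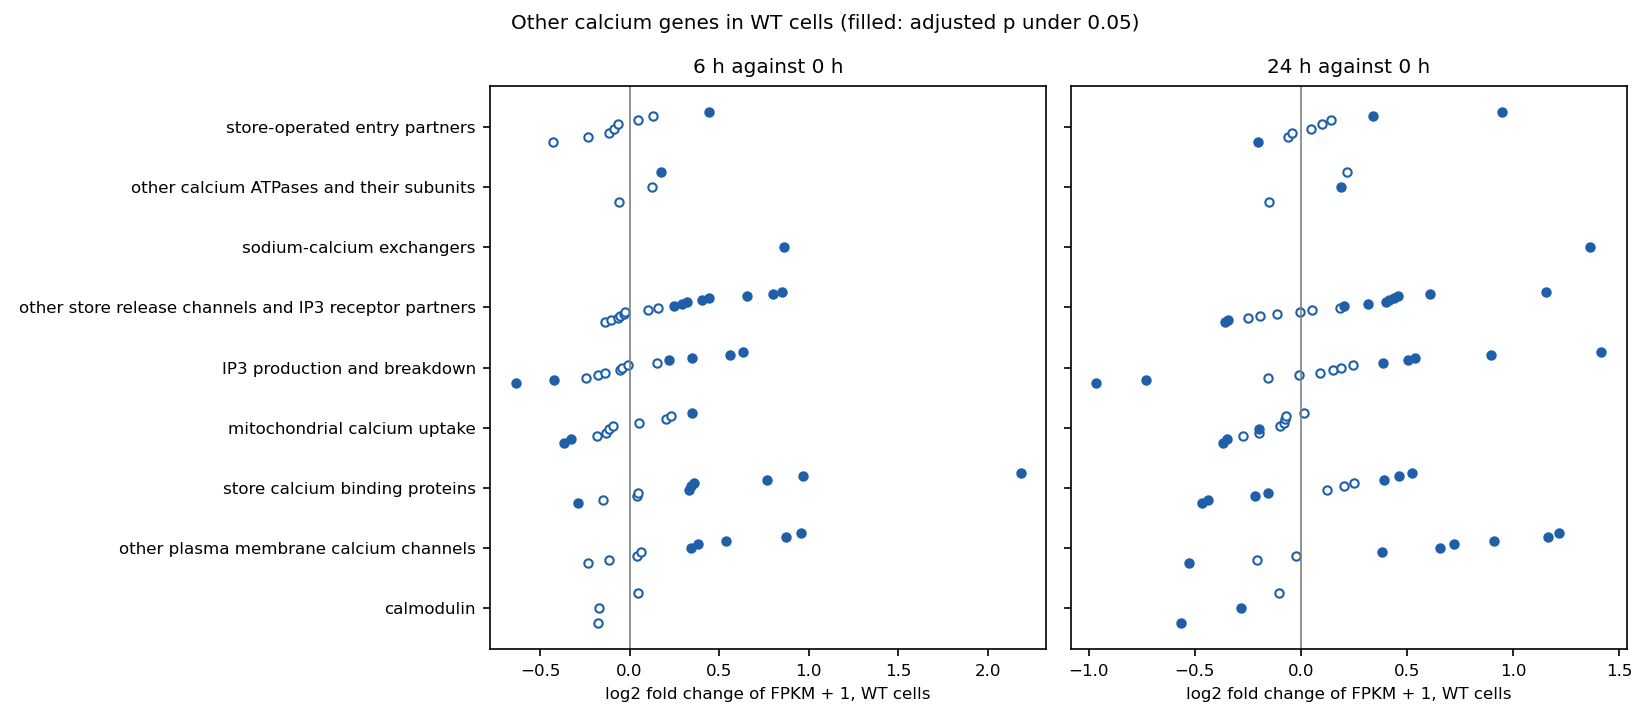
Log2 fold change of FPKM + 1 in WT cells at 6 h (left) and 24 h (right) against 0 h for the tested genes of the 9 further lists (rows), 1 point a gene, filled where the limma adjusted p was under 0.05. The store calcium binding protein farthest right at 6 h is HSPA5, at 2.18.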

How the data were processed

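Libraries were made from mRNA with a stranded kit and sequenced. The authors mapped reads to hg19 with TopHat and deposited 1 table of FPKM values estimated with Cufflinks, without counts, so the depth behind each value is unknown. FPKM is relative to each library's own total. The 2 columns whose names misprint the hour (replicate 2 of ΔCRE 0 h and 6 h) were read with the group row of the header. Columns not tied to a sample numbered 0.

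Groups were taken from the sample titles. limma 3.58.1 (R 4.3.3) was fitted to log2(FPKM + 1), with a trend of variance on level, over 6 groups and 11 libraries, for features with a mean of at least 1 FPKM. Cuffdiff, the study's test, needs reads. The code was tested on simulated data. All 10 members were named. From each other list, up to 3 called genes per WT comparison with 0 h and 2 per ΔCRE comparison with WT, ranked by size of change, and the gene of highest level could be named, and 1 gene that met this rule is not reported here. Members and lists were chosen with earlier results of these data known. Replicate numbers did not pair the libraries (correlation of deviations over 0.1 in 2 of 10 pairs of groups).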

Additional observations from a re-analysis of the deposited data

Results flagged for a closer look

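In replicate 1 of ΔCRE 0 h, ORAI1 was at 30.0 FPKM, a library left out of the main comparisons. The value was 155% of that in replicate 2 and above both WT libraries at 0 h (21.3 and 20.1 FPKM). The other 9 genes were below all 11 other libraries there, and the share of all features that were so was not counted. The gut epithelium markers summed to 11857 FPKM in the same library, and their part in the value was not tested.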

How the results depend on the processing

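Over all alternatives, 2264 values of members were recomputed. Of these, 2136 kept their direction and side of the threshold, and 51 lost and 12 gained a call. Another 63 values, called in neither fit, changed direction, and 2 values called in the main fit reversed. With all 12 libraries the number of members called was 1 at 6 h and 0 at 24 h against 0 h in WT cells, 1 between 6 h and 24 h, and 3, 3 and 0 in the same comparisons of ΔCRE cells, and 0 for ΔCRE against WT cells at 6 h. In that fit ITPR1 in ΔCRE cells at 6 h reversed to 0.27 (adjusted p = 0.605) and ATP2A2 in ΔCRE cells at 24 h reversed to 1.19 (adjusted p = 0.287). The ΔCRE 0 h mean of that fit includes replicate 1, where ITPR1 was at 0.773 FPKM and ATP2A2 at 10.6 FPKM. In replicate 2 they were at 3.70 and 84.8 FPKM. Why the levels in replicate 1 were low was not tested. A separate fit of the groups compared called 3 members in WT cells at 24 h against 0 h and 0 for ΔCRE against WT cells at 6 h.

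The replicate block, which pairs libraries by number alone, called 2 members for ΔCRE against WT cells at 6 h and 1 at 24 h, ATP2B1 having gained a call at both times (adjusted p = 0.0226 and 0.00862). ORAI1 gained one between 6 h and 24 h in WT cells (0.13) and at 6 h in ΔCRE cells (0.19). Correlations of same-numbered deviations ran from -0.07 to 0.20.

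Leaving out 1 library at a time gave 3 to 5 members called at 24 h against 0 h and 3 to 6 between 6 h and 24 h in WT cells, and 0 to 1 for ΔCRE against WT cells at 6 h. For none of the alternative fits in this section is the share of all features called given beside the count of members. A changed count therefore cannot be read as particular to the members.

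Rescaling to TPM moved the higher share of all called features from 52.5% to 35.0% at 6 h in WT cells, from 56.4% to 31.8% at 6 h in ΔCRE cells, from 43.7% to 64.3% and from 44.6% to 60.7% between 6 h and 24 h in WT and ΔCRE cells, and from 37.2% to 24.7% for ΔCRE against WT cells at 24 h. FPKM without counts gives no depth, and 2 libraries a group (1 at 0 h in ΔCRE cells) limit what the tests can show.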
